A study of Mus musculus with 9 samples.

Results

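Liver metastases of the N134-RHAMMB tumour line were compared with N134-RHAMMB tumours grown under the skin, gene by gene, in RNA sequencing data. A gene was included if it reached 5 FPKM in all 3 libraries of at least one of the 2 groups. FPKM is the number of fragments per kilobase of transcript in a library scaled to the same total. This rule kept 9288 of the 21944 genes in the table. Of these, 8245 met it in both groups, 475 in metastases only and 568 in subcutaneous tumours only. Each gene of the last 2 sets was under 5 FPKM in at least 1 library of the other group, so their differences are fixed in part by the rule and are given as descriptions.

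The N134 cells come from a neuroendocrine tumour of the mouse pancreas. Their derivative N134-RHAMMB takes its name from RHAMMB, which is a form of RHAMM, a protein that binds hyaluronan. Every host was an NSG mouse (NOD.Cg-PrkdcscidIl2rgtm1Wjl/SzJ), a strain that lacks mature T, B and natural killer cells and keeps its myeloid cells, stroma and vessels. Injections were subcutaneous or into a tail vein. The subcutaneous tumours (N134-RHAMMB tumours 1, 2 and 4) and the liver metastases (metastases 1, 2 and 3) came from the same line. The labels do not tie the injection route to each library, and site and route cannot be told apart. The 3 subcutaneous tumours of the N134 line itself (N134 tumours 1, 2 and 3) are given as a background. Age and sex of the mice, the number of clones in the line and whether each library came from another animal were not stated in the labels. The p-values thus measure the spread between these libraries, which may be technical.

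Hepatocytes make most plasma proteins and divide their metabolism along the blood flow. Periportal cells hold the urea cycle and gluconeogenesis, and pericentral cells hold many cytochrome P450 enzymes and glutamine synthetase. The connective tissue under the skin is made by fibroblasts that secrete collagens and small proteoglycans, beside adipocytes and a sheet of striated muscle. A beta cell tumour transplanted to either place brings its own insulin granules and islet transcription factors and takes up host cells. Bulk RNA mixes all of them, and fewer cells of a type cannot be told apart from less RNA per cell.

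Hepatocyte genes are known targets of HNF1, a homeodomain factor that binds GTTAAT half-sites. Stretches upstream of the start are shown for 4 liver list genes that were high in metastases and hold the half-site, to show the motif counted in the next paragraph. They are from RefSeq on GRCm38.p6, 5′ to 3′ on the gene's strand, with the letters GTTAAT, or ATTAAC for the other strand, in capitals. The genes encode albumin, the vitamin D binding protein, vitronectin and a fatty acid binding protein. The stretches are chr5:90460790-90460869 on the plus strand for Alb, chr5:89457908-89457987 on the minus strand for Gc, chr11:78498971-78499050 on the plus strand for Vtn and chr6:71199735-71199814 on the plus strand for Fabp1.
Alb: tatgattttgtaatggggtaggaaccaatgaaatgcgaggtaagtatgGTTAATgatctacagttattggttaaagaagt
Gc: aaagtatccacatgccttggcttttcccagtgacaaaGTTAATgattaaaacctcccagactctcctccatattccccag
Vtn: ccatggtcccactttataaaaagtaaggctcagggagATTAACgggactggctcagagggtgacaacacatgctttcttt
Fabp1: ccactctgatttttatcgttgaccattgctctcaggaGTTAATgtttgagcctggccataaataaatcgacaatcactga

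GTTAAT on either strand was in 17.6% of the 131 promoters of liver list genes that rose in metastases (114 of 156 genes matched), against 7.1% of all 32851 promoters and 4.74% of those of all genes compared. A promoter here is 250 bases before to 50 after a start. TTGCNNAA, a C/EBP motif, was in 26.0%, 10.8% and 8.14% of the same 3 sets. CAAAGTCCA, an HNF4 motif, was in 0.763% (1 promoter), 0.475% and 0.376%. In the 251 promoters of genes in no list that rose, CAAAGTCCA was in 3.59% (9 promoters), GTTAAT in 11.6% and TTGCNNAA in 17.1%. In promoters of tumour cell list genes GTTAAT was in 5.96%, and CTAATG, a PDX1-type motif, was in 7.02%. CTAATG was in 7.36% of all promoters and 4.59% of those of all genes compared. It was in 7.63% of those of liver list genes that rose. In the 88 promoters of all genes compared that fell, CTAATG was in 10.2% and GTTAAT in 9.09%. These are matches of letters only, with the motifs counted apart even where they overlap.

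The libraries held an estimated 14.6 to 18.4 M fragments, so that a single read pair on a 2 kb transcript counted for 0.0272 to 0.0342 FPKM, far under the level of 5 FPKM. Across genes, Pearson's r between libraries was 0.946 to 0.979 within metastases and 0.982 to 0.988 within N134-RHAMMB tumours. Metastasis 2 stood apart: there 313 of the 9288 genes were below 0.5 times their level in each of the other metastases, against 10 and 24 in metastases 1 and 3. N134-RHAMMB tumours 2 and 4 held skeletal muscle transcripts, with a summed muscle list of 267 and 333 FPKM against 46.2 in tumour 1 and 33.4 to 40.4 in metastases. Tumour 2 also held keratinocyte transcripts. Hmmr, which encodes RHAMM, read 50.2, 51.3 and 49.2 FPKM in subcutaneous N134-RHAMMB tumours 1, 2 and 4 and 36.04, 40.03 and 43.3 FPKM in metastases 1, 2 and 3, a difference that did not pass (difference -0.33, SE 0.10, adjusted p = 0.0991). The RHAMMB construct is not described in the sources used here, so this value does not check the labels.

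Of the 9288 genes, 402 were higher (4.33%) and 121 lower (1.3%) in metastases by limma at an adjusted p below 0.05, and 8765 did not pass. Here limma is a linear model of log2(FPKM + 1) over all 9 libraries, and every difference given is on that scale, metastases minus N134-RHAMMB tumours. Over all 12854 genes tested, 6.56% passed, 5.04% higher and 1.52% lower. Among the 8245 genes that met the rule in both groups, 118 were higher and 84 lower. The median difference of all 9288 genes was -0.07. The 3 metastases lay above all 3 N134-RHAMMB tumours in 714 genes and below them in 1119, where the shares over all genes tested were 8.8% and 11% (19.8% in all). The count of lower genes depended on single libraries: it was 57 without N134-RHAMMB tumour 1 and 251 without metastasis 2. It was 43 without both tumours that held muscle transcripts, where 312 were higher. With library weights the balance turned, to 600 higher and 751 lower. Quantile normalization shifted the split over all genes tested from 648 higher and 195 lower to 630 and 314.

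The rule set its members sharply at 5 FPKM. Arhgap8 (lowest tumour value 5.0003 FPKM) and Capn15 (lowest metastasis value 5.002 FPKM) lay just inside. Plscr4 and Podxl2, whose lowest N134-RHAMMB tumours read 4.9996 and 4.9992 FPKM, lay just outside.

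**Figure D1:**
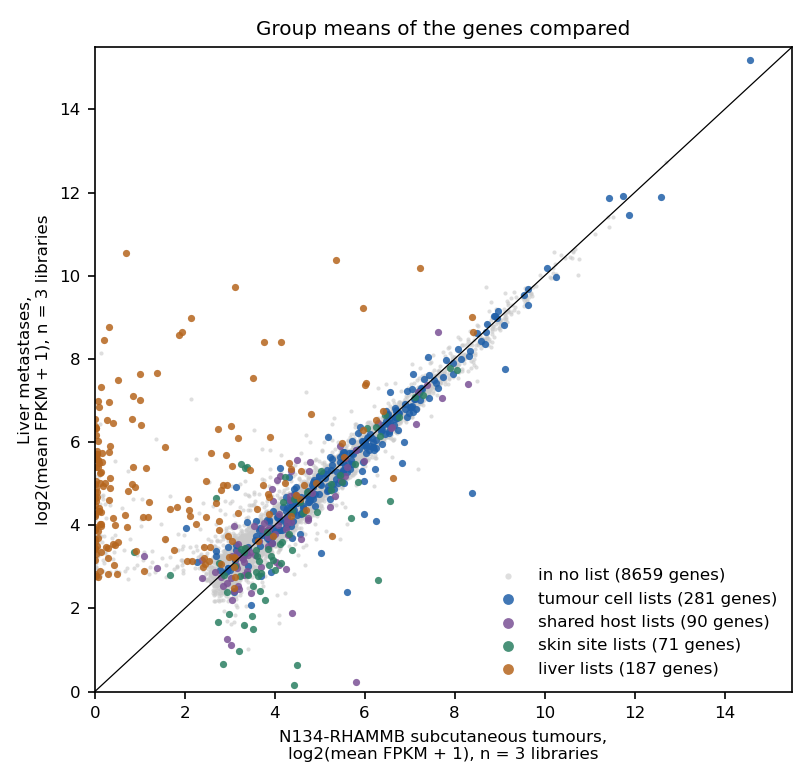
Mean level of the 9288 genes in N134-RHAMMB subcutaneous tumours (x axis) and liver metastases (y axis), both as log2(mean FPKM + 1) over 3 libraries, with the line of equal level. Colours mark the class of the gene lists. The 187 liver list genes lie mostly above the line and the 281 tumour cell list genes lie along it.

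Genes were described by 32 lists of 1228 genes in 4 classes: liver, skin site, host cells found at both sites, and tumour cells. In all, 629 of the 9288 genes were in a list. The liver lists took 3.38%, 3.71% and 3.48% of summed FPKM in metastases 1, 2 and 3. In N134-RHAMMB tumours 1, 2 and 4 they took 0.52%, 0.48% and 0.51%, and in N134 tumours 0.54% to 0.60%. The skin site lists took 0.58%, 0.39% and 0.48% in metastases and 0.57%, 0.57% and 0.72% in N134-RHAMMB tumours, so these ranges overlapped. The tumour cell lists took 16.0%, 16.4% and 17.1% in metastases and 14.5%, 15.6% and 13.9% in N134-RHAMMB tumours. Most of this was the islet hormone list, at 11.634%, 11.998% and 12.82% in metastases and 9.7837%, 11.049% and 9.222% in those tumours. That list holds Ins2, whose difference did not pass. In no other tumour cell list did the metastases lie above all N134-RHAMMB tumours. In the cell cycle, adhesion and exocrine lists they lay below. The higher share of the class thus rests on the islet hormone list.

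**Figure D2:**
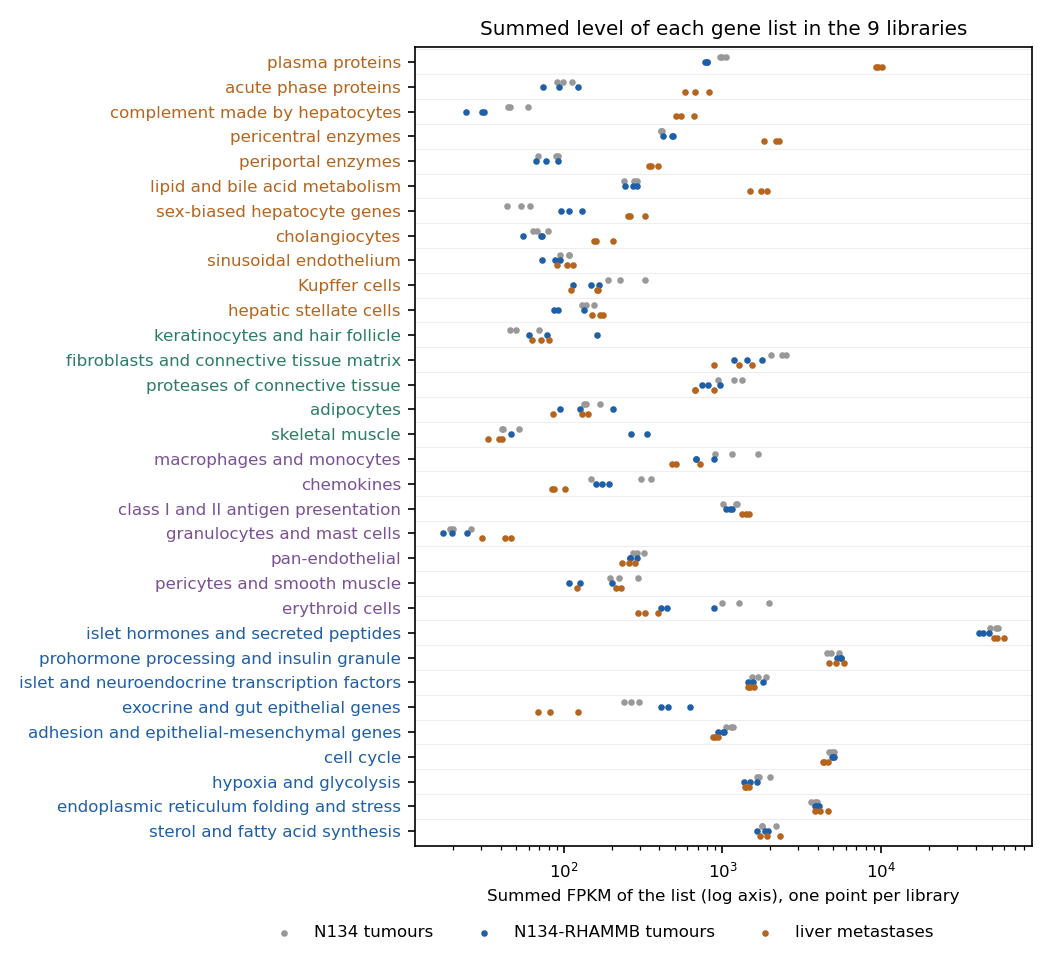
Summed FPKM of each list (x axis, log scale), with 1 point per library for N134 tumours, N134-RHAMMB tumours and liver metastases. The hepatocyte lists of metastases stand apart from both kinds of subcutaneous tumour, while the sums of sinusoidal endothelium and Kupffer cell genes overlap between sites.

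Liver list genes were higher in metastases. Of 187 liver list members, 156 rose and 1 fell, with a median of 3.36 against -0.07 over all 9288 genes. Of the 187, 136 met the rule in metastases only and 3 in tumours only, so most of that count follows the rule. The other 48 were at 5 FPKM in both groups, and of them 25 rose and 1 fell (54.2% passed, against 2.45% of all such genes). Albumin, Alb, one of the members in metastases only, stood at 0.685, 0.72 and 0.481 FPKM in subcutaneous N134-RHAMMB tumours 1, 2 and 4 and at 1504, 1410.4 and 1609 FPKM in metastases 1, 2 and 3 (difference 9.86, SE 0.12, adjusted p = 2.31e-11). The 2 groups were far apart, and the 3 metastases lay close together.

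Plasma proteins rose in 49 of 53 members (median 4.64). Of the 53, 41 met the FPKM rule in metastases only, Apoc1 among them, so this count follows the rule in large part. Transferrin, Trf, which carries iron, stood at 47.9, 36.3 and 36.5 FPKM in subcutaneous N134-RHAMMB tumours against 1415, 1443 and 1148 FPKM in metastases (difference 5.02, SE 0.15, adjusted p = 3.52e-09). Apolipoprotein E, Apoe, which macrophages also make, stood at 109, 133 and 203 FPKM under the skin against 1097, 1199 and 1200.3 FPKM in the liver (difference 3.01, SE 0.19, adjusted p = 1.31e-06). Apoc1, an apolipoprotein of triglyceride-rich particles, stood at 3.22, 2.12 and 3.104 FPKM in subcutaneous N134-RHAMMB tumours against 312, 427 and 460.3 FPKM in metastases (difference 6.71, SE 0.18, adjusted p = 2.44e-09). For both genes every metastasis lay above all 6 subcutaneous tumours. Transthyretin, Ttr, is also made by islet cells and was high at both sites. It stood at 328, 389.8 and 282 FPKM in subcutaneous N134-RHAMMB tumours against 574, 479.6 and 487 FPKM in metastases (difference 0.63, SE 0.14, adjusted p = 0.0249), and the call was lost without metastasis 1 or N134-RHAMMB tumour 1 or 4 (limma adjusted p = 0.094 to 0.0984).

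Acute phase proteins, which hepatocytes secrete in larger amounts during inflammation, rose in 11 of 13 members (median 3.77). Of the 13, 12 met the FPKM rule in metastases only, so this count follows the rule in large part. The list differed between metastases: 10 of the 11 were highest in metastasis 2. Hamp (ENSMUSG00000050440, chromosome 7, 30942368 to 30944032 in GRCm38), which encodes the iron hormone hepcidin, had 0 listed for each N134-RHAMMB tumour and stood at 33.4, 99.1 and 22.1 FPKM in metastases 1, 2 and 3. Serum amyloid A1, Saa1, stood at 11.1, 26.2 and 9.11 FPKM in metastases and at 0 to 0.148 FPKM in subcutaneous N134-RHAMMB tumours. Saa2 was listed at 0 in those tumours and stood at 5.22, 17.02 and 7.01 FPKM in metastases. For these 3 genes metastasis 2 was the highest of the 3. Fgl1, a secreted fibrinogen-like protein, was 23.5, 40.5 and 18.7 FPKM, and the acid glycoprotein Orm1 was 38.4, 56.9 and 29.1 FPKM, again with the peak in metastasis 2. The exception was Lcn2, a lipocalin that binds bacterial iron carriers, at 38.6, 30.4 and 18.1 FPKM. Crp, C-reactive protein, overlapped between groups, at 56.9, 72.8 and 55.3 FPKM in subcutaneous N134-RHAMMB tumours against 92.9, 68.5 and 72.4 FPKM in metastases (difference 0.33, SE 0.15, adjusted p = 0.307, 95% interval -0.004 to 0.67).

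Complement genes of hepatocytes rose in 17 of 17 members (median 3.14), 16 of them at 5 FPKM in metastases only. The central component C3 stood at 1.65, 1.15 and 1.99 FPKM in subcutaneous N134-RHAMMB tumours against 178, 244 and 185 FPKM in metastases (difference 6.29, SE 0.21, adjusted p = 8.77e-09). Cfb, complement factor B, was the 1 member at that level in both groups, at 9.98, 6.52 and 7.82 FPKM under the skin against 62.9, 74.5 and 63.8 FPKM in the liver (difference 2.91, SE 0.28, adjusted p = 4.02e-05). C9, a pore-forming component, and Mbl1, a mannose-binding lectin, had 0 listed for each N134-RHAMMB tumour and stood at 20.3, 24.8 and 27.2 FPKM for C9 and 11.2, 16.8 and 15.6 FPKM for Mbl1 in metastases. Of the 17 genes 13 were highest in metastasis 2.

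Enzymes of pericentral hepatocytes rose in 20 of 22 members (median 4.41) and those of periportal hepatocytes in 13 of 15 (median 2.63). The FPKM rule was met in metastases only by 16 of the 22 and 12 of the 15, so these counts follow it in large part. Cyp3a11, Gulo, Cps1 and Arg1, named below, are among them. Among pericentral enzymes, Cyp3a11, a drug-metabolizing cytochrome P450, stood at 0.796, 0.764 and 0.885 FPKM in subcutaneous N134-RHAMMB tumours against 127, 118 and 165 FPKM in metastases (difference 6.23, SE 0.18, adjusted p = 3.04e-09). Gulo, which makes the last step to vitamin C, stood at 38.8, 47.5 and 47.7 FPKM in metastases and at or under 0.284 FPKM in those tumours. Gstm1, a glutathione transferase with near-identical paralogs and so an uncertain value, was present at both sites, at 63.8, 50.6 and 70.7 FPKM under the skin against 514, 653 and 636 FPKM in the liver (difference 3.27, SE 0.15, adjusted p = 1.27e-07). Glul, glutamine synthetase, which in liver marks the cells next to the central vein, did not pass. It stood at 356, 309 and 350.02 FPKM in subcutaneous N134-RHAMMB tumours against 339.6, 488 and 363 FPKM in metastases (difference 0.21, SE 0.13, adjusted p = 0.497, 95% interval -0.08 to 0.51).

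Among periportal enzymes, Cps1, the entry enzyme of the urea cycle, stood at 16.3, 17.97 and 10.6 FPKM in metastases and at or under 0.133 FPKM in subcutaneous N134-RHAMMB tumours. Arg1, arginase, stood at 1.54, 0.681 and 1.55 FPKM under the skin against 17.7, 18.6 and 15.8 FPKM in the liver (difference 3.05, SE 0.34, adjusted p = 0.000158). The urea cycle enzymes Ass1 and Asl were also present in tumours. Ass1 stood at 14.1, 8.98 and 10.6 FPKM there and 23.2, 20.03 and 16.995 FPKM in metastases (difference 0.796, SE 0.17, adjusted p = 0.0182), a call lost without metastasis 1 or N134-RHAMMB tumour 2 or 4 (limma adjusted p = 0.0666 to 0.0789). Asl did not pass (difference 0.43, SE 0.18, adjusted p = 0.254), at 17.7, 11.02 and 12.2 FPKM under the skin against 18.5, 17.7 and 18.99 FPKM in the liver.

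Lipid and bile acid enzymes rose in 35 of 38 members (median 3.13). Of the 38, 28 met the FPKM rule in metastases only, so this count follows the rule in large part. Fabp1, the liver fatty acid binding protein, stood at 54.04, 93.03 and 229.7 FPKM in metastases and at 0, 0 and 0.163 FPKM in subcutaneous N134-RHAMMB tumours. Bhmt, which remethylates homocysteine, stood at 98.1, 69.4 and 46.7 FPKM in metastases and at or under 0.0285 FPKM in those tumours. Metastasis 3 was the highest of the 3 for the first gene and the lowest for the second. Slco1b2, an organic anion carrier of the hepatocyte membrane, stood at 33.4, 49.9 and 40.2 FPKM. Scp2, a peroxisomal sterol carrier, was at 5 FPKM or more at both sites, with 27.9, 29.5 and 24.1 FPKM under the skin against 89.7, 108 and 108 FPKM in the liver (difference 1.87, SE 0.13, adjusted p = 2.35e-06), as was Adh1, alcohol dehydrogenase, with 71.4, 53.2 and 67.9 FPKM under the skin against 159.7, 175 and 174 FPKM in the liver (difference 1.397, SE 0.15, adjusted p = 0.000138).

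Of the 7 members on a list of genes known to differ between male and female mouse liver, 5 rose and 1 fell. The 5 that rose met the FPKM rule in metastases only and are known for higher levels in male liver. They included Mup20, a major urinary protein, at 75.96, 79.4 and 82.96 FPKM, Mup3 at 39.6, 71.6 and 130.04 FPKM and the cytochrome P450 Cyp2d9 at 51.4, 46.5 and 57.04 FPKM in metastases, with all 3 at or under 0.0832 FPKM in subcutaneous N134-RHAMMB tumours. Cyp4a12a was listed at 0 in those tumours and stood at 8.48, 11.3 and 10.05 FPKM in metastases. The seventh member, Cux2, a homeodomain factor known for higher levels in female liver, stood at 6.23, 6.35 and 10.4 FPKM under the skin against 4.83, 4.93 and 7.56 FPKM in the liver, overlapped and did not pass (difference -0.34, SE 0.22, adjusted p = 0.498). The list held 23 genes, and all but these 7 were under the FPKM rule. They included genes known for higher levels in male liver as well as in female liver. Of the 23 genes, 8 were tested, and among them 5 rose and 1 fell, the same counts as among the 7 members. The sex of the mice was not tested. The cytochrome P450 and urinary protein families hold near-identical copies, so single values are uncertain. The gene that fell was Serpina1e, a copy of alpha-1 antitrypsin. It stood at 119.5, 85.2 and 91.9 FPKM in subcutaneous N134-RHAMMB tumours, 62.9, 22.4 and 17.7 FPKM in metastases and 32.7, 41.1 and 50.5 FPKM in N134 tumours, so it was read in every tumour library (difference -1.703, SE 0.38, adjusted p = 0.0222). Its call was lost without metastasis 2 or 3 or any 1 N134-RHAMMB tumour (limma adjusted p = 0.0538 to 0.0983).

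The 156 liver genes that rose were compared between metastases. The highest metastasis was a median of 1.33 times the lowest, 112 genes were under 1.5 times, 31 were at 1.5 to 2 times, and 13 at 2 times or more, with a range of 1.03 to 4.49. Metastasis 2 was highest for 86 genes, metastasis 3 for 55 and metastasis 1 for 15. The order depended on the list. Pericentral enzymes were highest in metastasis 3 for 14 of 20, led by Cyp2c29 at 26.4, 33.5 and 81.4 FPKM, whereas acute phase and complement genes were mostly highest in metastasis 2. Plasma proteins were highest in metastasis 2 for 34 of 49, and their summed FPKM was 9365, 10171 and 9601 in metastases 1, 2 and 3.

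**Figure D3:**
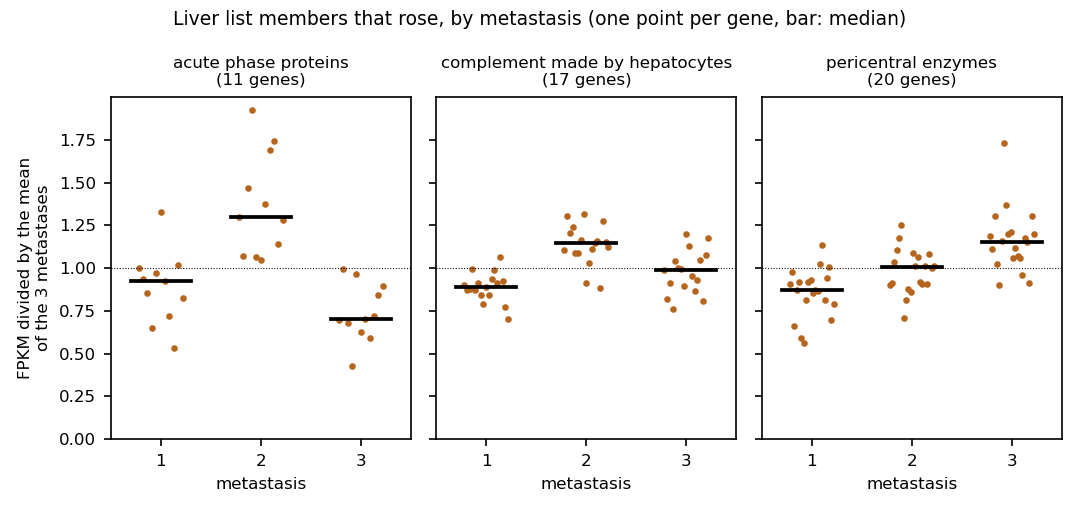
FPKM of each gene in a metastasis divided by its mean over the 3 metastases (y axis), for members of 3 liver lists that rose, with 1 point per gene and a bar at the median. Acute phase genes are highest in metastasis 2 for 10 of 11 and pericentral enzymes in metastasis 3 for 14 of 20, with libraries having no order.

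Among markers of the other liver cells, none of the 5 sinusoidal endothelial members passed in limma (1 at an unadjusted p below 0.05, and 1 lower with library weights), with a list median of 0.15. Lyve1, a hyaluronan receptor, stood at 28.4, 19.5 and 24.2 FPKM in subcutaneous N134-RHAMMB tumours against 43.4, 18.2 and 29.9 FPKM in metastases. Other genes of that list were under 5 FPKM in at least 1 metastasis. Clec4g was listed at 0 in tumours and stood at 3.70, 5.47 and 4.93 FPKM in metastases. Oit3 was at 2.61, 4.12 and 1.96 FPKM there and Rspo3 at 1.18, 1.26 and 1.13 FPKM. Those 3 passed. The stellate cell list had 8 members, of which 2 rose and 6 did not pass (median 0.60). With genes under the FPKM rule, 15 of that list were tested, of which 5 rose and none fell. Colec11, a collectin, rose from 0.417, 0.366 and 0.335 to 10.3, 12.7 and 8.81 FPKM (difference 3.07, SE 0.19, adjusted p = 1.15e-06). Decorin, Dcn, which fibroblasts under the skin also make, rose from 11.4, 10.6 and 14.9 to 33.97, 32.5 and 24.4 FPKM (difference 1.23, SE 0.16, adjusted p = 0.000512). The Kupffer cell list had 4 members, Id3, Slc40a1, Hmox1 and Cdh5, of which 1 rose and 3 did not pass (median 0.15). With genes under the FPKM rule, 14 of that list were tested, of which 3 rose and 1 fell. Id3, a helix-loop-helix inhibitor, rose from 5.83, 5.44 and 6.098 to 17.6, 13.7 and 17.1 FPKM (difference 1.33, SE 0.15, adjusted p = 0.000192). Hmox1, haem oxygenase, was lower in every metastasis than in any N134-RHAMMB tumour, at 18.3, 5.79 and 13.2 against 36.95, 23.6 and 52.95 FPKM, and did not pass (difference -1.59, SE 0.50, adjusted p = 0.11).

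Part of the skin site lists fell. Of 71 members 18 fell and 4 rose (median -0.41), and of the 44 at 5 FPKM in both groups 6 fell and 2 rose. Over all genes tested 1.52% fell and 5.04% rose, and among all 8245 genes at 5 FPKM in both groups 1.02% fell and 1.43% rose. The count of 18 was 11 without N134-RHAMMB tumour 4 and 13 without both tumours that held muscle transcripts. Fibroblast and matrix genes held 12 of the 18, in a list of 43 with a median of -0.57, and without both tumours that held muscle transcripts 7 of them fell. In 16 of the 43 the metastases lay below all N134-RHAMMB tumours, which 11% of all genes tested did, but 15 of the 43 met the FPKM rule in tumours only and so lean that way by the rule. Mfap5, a microfibril protein, stood at 21.02, 18.1 and 22.9 FPKM in subcutaneous N134-RHAMMB tumours against 0, 0 and 0.36 FPKM in metastases (difference -4.28, SE 0.22, adjusted p = 2.38e-07). Dpt, dermatopontin, a matrix protein of the dermis, stood at 9.75, 7.79 and 7.12 FPKM under the skin against 1.004, 1.105 and 0.776 FPKM in the liver (difference -2.23, SE 0.19, adjusted p = 1.62e-05). Thy1, a surface protein of fibroblasts, stood at 5.58, 5.96 and 7.24 FPKM under the skin against 0.929, 0.406 and 0.422 FPKM in the liver (difference -2.204, SE 0.22, adjusted p = 5.81e-05). All 3 were higher still in N134 tumours, where Dpt stood at 16.9, 13.7 and 10.5 FPKM. Col12a1, a collagen that coats fibrils, fell from 10.4, 8.53 and 12.4 to 2.189, 0.998 and 2.35 FPKM (difference -2.03, SE 0.21, adjusted p = 8.18e-05). The proteoglycan Aspn, asporin, fell from 7.44, 9.47 and 9.81 to 2.42, 1.79 and 1.91 FPKM (difference -1.701, SE 0.17, adjusted p = 5.44e-05). All the genes named here, from Mfap5 to Aspn, met the FPKM rule in tumours only, so their differences are fixed in part by it.

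Other matrix genes did not pass. Col3a1, a fibrillar collagen, stood at 265, 199.98 and 333 FPKM in subcutaneous N134-RHAMMB tumours against 285, 111 and 237 FPKM in metastases (difference -0.41, SE 0.32, adjusted p = 0.612), and Sparc, a matrix glycoprotein, at 148, 132 and 190.2 FPKM under the skin against 161, 106 and 153 FPKM in the liver (difference -0.17, SE 0.18, adjusted p = 0.744). In both genes the groups overlapped and metastasis 2 was the lowest library. Of the 71 skin site members 13 were below 0.5 times both other metastases in metastasis 2. Col14a1 (ENSMUSG00000022371, chromosome 15, 55307750 to 55520803 in GRCm38), another collagen that coats fibrils, rose from 5.04, 4.71 and 6.64 to 28.03, 18.2 and 26.7 FPKM (difference 1.96, SE 0.19, adjusted p = 5.44e-05). Igfbp4, which binds insulin-like growth factors and which hepatocytes also express, rose from 9.74, 6.11 and 9.85 to 48.4, 38.6 and 43.996 FPKM (difference 2.24, SE 0.22, adjusted p = 4.66e-05). These 2 were the members of that list that rose, and the 3 metastases lay above all 6 subcutaneous tumours for each.

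Among proteases and their inhibitors 3 of 14 fell and none rose. That count was 1 without metastasis 1, N134-RHAMMB tumour 2 or 4 or N134 tumour 1, and 0 without both tumours that held muscle transcripts. Mmp2, a gelatinase of fibroblasts, stood at 6.49, 5.34 and 9.08 FPKM in subcutaneous N134-RHAMMB tumours against 3.16, 1.93 and 2.78 FPKM in metastases (difference -1.12, SE 0.20, adjusted p = 0.00488), and without both tumours that held muscle transcripts adjusted p = 0.0665. The metalloproteinase inhibitor Timp1 stood at 14.3, 10.9 and 13.3 FPKM under the skin against 4.02, 1.13 and 5.64 FPKM in the liver (difference -1.73, SE 0.43, adjusted p = 0.0396). Its call was lost without metastasis 1 or 2, any 1 N134-RHAMMB tumour or N134 tumour 1 (limma adjusted p = 0.0582 to 0.14). Timp3, a matrix-bound inhibitor of the same family, stood at 11.4, 10.9 and 12.3 FPKM under the skin against 7.92, 8.04 and 7.34 FPKM in the liver (difference -0.52, SE 0.12, adjusted p = 0.0306), a call lost without metastasis 1 or 3, any 1 N134-RHAMMB tumour or N134 tumour 1 (limma adjusted p = 0.0545 to 0.112). Lysosomal cathepsins did not pass, for example Ctsd at 229, 203 and 285 FPKM under the skin against 277, 191 and 184 FPKM in the liver.

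Adipocyte genes went both ways. Fabp4, the fatty acid binding protein of adipocytes and capillaries, fell from 71.9, 51.8 and 28.1 to 13.1, 19.2 and 18.6 FPKM (difference -1.44, SE 0.29, adjusted p = 0.0103). Adipoq, adiponectin, was below 5 FPKM in 2 of the tumours, at 10.6, 1.75 and 0.822 FPKM, and was listed at 0 in all 3 metastases. Scd1, a fat desaturase that hepatocytes also express, rose from 13.2, 7.33 and 6.84 to 21.9, 57.3 and 43.5 FPKM (difference 2.002, SE 0.33, adjusted p = 0.00311), and without both tumours that held muscle transcripts adjusted p = 0.203.

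Skeletal muscle transcripts moved with single libraries. Mylpf, a light chain of fast muscle myosin, stood at 10.97, 106 and 117 FPKM in subcutaneous N134-RHAMMB tumours 1, 2 and 4, high in the 2 with muscle transcripts. It stood at 3.598, 8.13 and 4.44 FPKM in metastases (difference -3.12, SE 0.74, adjusted p = 0.0295), and without both of those tumours the difference was -0.97 (adjusted p = 0.547). Its call was also lost without metastasis 1 or 3, N134-RHAMMB tumour 2 or 4, or N134 tumour 1 (limma adjusted p = 0.052 to 0.121). Among keratinocyte genes Col17a1, a collagen of epithelial anchoring junctions, fell from 33.4, 18.8 and 12.5 to 0.474, 0.197 and 1.05 FPKM (difference -3.77, SE 0.31, adjusted p = 1.33e-05). In N134 tumours it stood at 10.1, 7.91 and 9.07 FPKM. The keratinocyte marker Krtdap read 2.71, 51.4 and 0.755 FPKM in subcutaneous N134-RHAMMB tumours 1, 2 and 4. Krt5, a basal keratin, was at 0.167, 1.15 and 0.176 FPKM there. Which cells made the Col17a1 transcripts was not tested. Gsta4, a glutathione transferase that hepatocytes also express, rose from 0.596, 1.05 and 0.866 to 7.44, 10.6 and 9.83 FPKM (difference 2.48, SE 0.17, adjusted p = 3.19e-06).

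Host cells found at both sites gave 8 members that rose and 7 that fell out of 90 (median -0.17). That is 16.7%, where 6.56% of all genes tested passed, 5.04% higher and 1.52% lower. Of the 72 members at 5 FPKM in both groups, 6 rose and 3 fell (12.5%, against 2.45% of all such genes). No member of the macrophage list passed in limma (0 of 26, median -0.40), 11 had an unadjusted p below 0.05, and with only the 6 libraries of both groups 1 was higher and 3 lower. Lyz2, lysozyme of myeloid cells, stood at 117, 124 and 181 FPKM in subcutaneous N134-RHAMMB tumours against 124, 57.5 and 73.4 FPKM in metastases (difference -0.77, SE 0.30, adjusted p = 0.212). C1qa, a complement component of macrophages, stood at 88.4, 91.4 and 107 FPKM under the skin against 103, 69.4 and 68.1 FPKM in the liver (difference -0.27, SE 0.20, adjusted p = 0.578), and the groups overlapped for both. Msr1, a scavenger receptor, was lower in every metastasis, at 4.37, 4.41 and 3.62 against 10.2, 9.22 and 10.8 FPKM, and did not pass (difference -1.11, SE 0.36, adjusted p = 0.122).

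Of 8 chemokine members 1 rose and 3 fell, and without N134-RHAMMB tumour 1 none rose and 1 fell. Ccl8, which attracts monocytes, stood at 53.8, 58.8 and 53.3 FPKM in subcutaneous N134-RHAMMB tumours against 0.367, 0.171 and 0 FPKM in metastases (difference -5.59, SE 0.40, adjusted p = 3.54e-06), with 101, 139 and 34.5 FPKM in N134 tumours. Ccl6 fell from 33.6, 14.3 and 12.2 to 3.73, 1.801 and 2.52 FPKM (difference -2.41, SE 0.51, adjusted p = 0.0167), a call lost without metastasis 3 or N134-RHAMMB tumour 1 (limma adjusted p = 0.0545 to 0.0716). Cxcl16, a membrane-bound chemokine, fell from 28.6, 21.8 and 18.3 to 13.2, 8.62 and 13.7 FPKM (difference -0.903, SE 0.21, adjusted p = 0.0249), a call lost without N134-RHAMMB tumour 1 or 2 (limma adjusted p = 0.0706 to 0.115). Cxcl12, the ligand of CXCR4, which liver endothelial and stellate cells are known to make, rose from 1.13, 1.59 and 2.15 to 7.38, 7.204 and 5.89 FPKM (difference 1.59, SE 0.32, adjusted p = 0.011). That call was lost without N134-RHAMMB tumour 1 (adjusted p = 0.0563 in limma).

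Antigen presentation genes held 7 of the 8 that rose. The 7 were 3 without metastasis 3 or N134-RHAMMB tumour 1, 4 without tumour 2 or 4, and 2 without both tumours that held muscle transcripts. B2m, the light chain of class I molecules, rose from 175, 196 and 218 to 365, 465 and 377 FPKM (difference 1.03, SE 0.16, adjusted p = 0.00193). Iigp1, an interferon-inducible GTPase, rose from 1.15, 1.23 and 1.06 to 6.41, 10.98 and 8.61 FPKM (difference 2.14, SE 0.19, adjusted p = 1.89e-05), and Bst2, tetherin, from 16.3, 15.7 and 17.1 to 27.2, 44.2 and 33.9 FPKM (difference 1.03, SE 0.17, adjusted p = 0.00239), where without both tumours that held muscle transcripts adjusted p = 0.0948. The class I heavy chains did not pass: H2-K1 stood at 173, 163 and 162 FPKM under the skin against 183, 143 and 169 FPKM in the liver (difference -0.02, SE 0.11, adjusted p = 0.964), and H2-D1 at 153, 120.04 and 164 FPKM under the skin against 174, 119.8 and 147 FPKM in the liver (difference 0.01, SE 0.17, adjusted p = 0.988). Both have near-identical copies, so single values are uncertain. The class II genes H2-Aa, H2-Ab1 and H2-Eb1 and the invariant chain Cd74 rose together by 0.73 to 1.06. Cd74 stood at 20.6, 20.5 and 24.01 FPKM in subcutaneous N134-RHAMMB tumours, 39.7, 48.005 and 51.4 FPKM in metastases and 37.1, 28.7 and 18.4 FPKM in N134 tumours, so metastases lay above both tumour groups. Each of these 4 calls was lost without some 1 library. For Cd74 these were metastasis 3 and N134-RHAMMB tumours 1 and 2, for H2-Aa metastases 2 and 3 and tumours 1 and 4, and for H2-Ab1 the same 4 and tumour 2. H2-Eb1 lost it without any 1 of the 6 or N134 tumour 2 (limma adjusted p = 0.0536 to 0.136 over all 4). Usp18, an interferon-induced protease, went the other way, from 43.9, 39.3 and 35.1 to 26.4, 25.4 and 24.1 FPKM (difference -0.62, SE 0.11, adjusted p = 0.00459).

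Of 23 vessel members, 16 endothelial and 7 of pericytes and smooth muscle, 1 of each fell and none rose. Pecam1, the pan-endothelial adhesion molecule CD31, stood at 17.4, 18.4 and 18.4 FPKM in subcutaneous N134-RHAMMB tumours against 14.5, 13.2 and 14.1 FPKM in metastases (difference -0.35, SE 0.14, adjusted p = 0.247), and Egfl7 at 46.8, 43.3 and 49.4 FPKM under the skin against 44.7, 35.3 and 63.8 FPKM in the liver (difference 0.004, SE 0.20, adjusted p = 0.994). The endothelial apelin receptor, Aplnr, fell from 7.92, 5.32 and 6.96 to 1.35, 1.796 and 1.13 FPKM (difference -1.67, SE 0.18, adjusted p = 0.00013). Higd1b, a pericyte gene, fell from 6.81, 5.12 and 9.42 to 1.296, 1.99 and 0.216 FPKM (difference -1.97, SE 0.33, adjusted p = 0.00364), and without both tumours with muscle transcripts adjusted p = 0.0857. Acta2, smooth muscle actin, overlapped, at 37.97, 30.4 and 60.6 FPKM under the skin against 74.2, 30.3 and 73.9 FPKM in the liver. The erythroid gene Bpgm fell from 9.95, 11.9 and 14.03 to 6.97, 5.79 and 8.02 FPKM (difference -0.71, SE 0.17, adjusted p = 0.0321), and that call was lost without metastasis 1 or 2, N134-RHAMMB tumour 2 or 4, or N134 tumour 2 (limma adjusted p = 0.0568 to 0.123).

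Of 281 tumour cell list members 5 rose, 12 fell and 264 did not pass, with a median of -0.07. The share that passed, 6.05%, was near that of all 9288 genes (5.63%) and of all genes tested (6.56%). The 95% interval of the difference lay within -0.5 to 0.5 for 114 of the 281 and within -1 to 1 for 236, so for the others a difference of that size is not excluded by the interval. The counts moved with metastasis 2, in which 15 of the 281 were below 0.5 times both other metastases and 7 above 2 times both. Without it 10 members were higher and 25 lower. Without both tumours with muscle transcripts 3 were higher and 8 lower.

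Of 19 islet hormones and secreted peptides 3 fell, which was 1 without N134-RHAMMB tumour 1 or 2. Insulin genes did not pass. Ins2 stood at 22775, 28390.2 and 21154 FPKM in subcutaneous N134-RHAMMB tumours against 34621, 38131 and 38504 FPKM in metastases (difference 0.63, SE 0.19, adjusted p = 0.0868). Ins1, a near-identical copy whose value is uncertain, stood at 4001, 3062 and 4211 FPKM under the skin against 2649, 824 and 4947 FPKM in the liver, lowest in metastasis 2. Amylin, Iapp, stood at 3587, 3492 and 3233 FPKM under the skin against 3139, 6492 and 2049 FPKM in the liver, highest in metastasis 2. Chgb, a granin of secretory granules, fell from 611, 419 and 626 to 254, 233 and 159 FPKM (difference -1.36, SE 0.19, adjusted p = 0.00102), while Chga, another granin, stood at 992, 883 and 1308 FPKM under the skin against 1208, 829 and 1427 FPKM in the liver (difference 0.11, SE 0.21, adjusted p = 0.885). Nnat, neuronatin, a small membrane protein of beta cells, fell from 6641, 6057 and 5671 to 3212, 3992 and 4294 FPKM (difference -0.68, SE 0.15, adjusted p = 0.0178). That call was lost without metastasis 1 or N134-RHAMMB tumour 1 or 2 (limma adjusted p = 0.0636 to 0.0998) and with median-of-ratios scaling (adjusted p = 0.122). Gast, which encodes the gut hormone gastrin, fell to 23.8, 2.09 and 22.6 FPKM in metastases from 89.2, 79.3 and 57.3 FPKM (difference -2.62, SE 0.64, adjusted p = 0.0354). N134 tumours stood at 22.4, 22.7 and 22.2 FPKM, and the call was lost without any 1 of the 6 subcutaneous tumours (limma adjusted p = 0.0577 to 0.129).

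Of 50 genes of prohormone processing and insulin granules 1 rose and 1 fell. Without metastasis 2 these were 3 and 5, without metastasis 3 they were 2 and 3, and without N134-RHAMMB tumour 2 they were 1 and 2. Th, tyrosine hydroxylase, which makes the catecholamine precursor, fell from 132, 95.3 and 111 to 44.8, 28.7 and 59.2 FPKM (difference -1.38, SE 0.27, adjusted p = 0.00885), and stood at 130.5, 170.002 and 233 FPKM in N134 tumours. Prlr, the prolactin receptor, which hepatocytes also express, rose from 3.74, 4.46 and 3.399 to 6.84, 7.53 and 8.78 FPKM (difference 0.84, SE 0.16, adjusted p = 0.00676). Without both tumours with muscle transcripts adjusted p = 0.0873 for Th and 0.114 for Prlr. The processing enzymes Pcsk2 (difference -0.04, SE 0.19, adjusted p = 0.948) and Cpe (difference -0.41, SE 0.24, adjusted p = 0.46) did not pass, with Cpe at 829, 759 and 793 FPKM under the skin against 682, 382 and 820.2 FPKM in the liver and lowest in metastasis 2.

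Of 30 islet transcription factors 1 rose and 1 fell. Pax4 (ENSMUSG00000029706, chromosome 6, 28442334 to 28449353 in GRCm38), a homeodomain factor of beta cell progenitors, fell from 33.4, 28.6 and 33.2 to 6.34, 11.1 and 9.87 FPKM (difference -1.73, SE 0.19, adjusted p = 0.000135), with 17.6, 18.4 and 23.5 FPKM in N134 tumours. Metastases thus lay below both groups of subcutaneous tumours. Mafa, an activator of the insulin gene in mature beta cells, rose from 28.4, 38.8 and 39.5 to 69.6, 52.05 and 83.5 FPKM (difference 0.91, SE 0.20, adjusted p = 0.0218), a call lost without metastasis 1 or 3 or N134-RHAMMB tumour 1 (limma adjusted p = 0.076 to 0.1). Pdx1, the main beta cell homeodomain factor, stood at 97.3, 107 and 105 FPKM under the skin against 115, 97.2 and 111 FPKM in the liver (difference 0.06, SE 0.12, adjusted p = 0.881, 95% interval -0.198 to 0.32). Isl1 was spread within metastases, at 42.7, 104 and 29.2 FPKM, around 58.8, 77.3 and 68.8 FPKM in subcutaneous N134-RHAMMB tumours.

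Of 4 exocrine and gut epithelial members 3 fell. The galectin Lgals2 stood at 442, 316 and 237 FPKM in subcutaneous N134-RHAMMB tumours against 55.6, 1.27 and 22.6 FPKM in metastases (difference -4.47, SE 0.89, adjusted p = 0.0111), a call lost without N134-RHAMMB tumour 1 (adjusted p = 0.0503 in limma). Without both tumours that held muscle transcripts it was 0.15. Tff3, a trefoil peptide of mucous surfaces, stood at 78.3, 61.6 and 46.8 FPKM under the skin against 23.1, 21.9 and 10.3 FPKM in the liver (difference -1.75, SE 0.29, adjusted p = 0.00328). For Lgals2 the N134 tumours stood at 136, 179 and 159 FPKM, between the other groups, and for Tff3 at 33.1, 39.7 and 50.3 FPKM, where they overlapped with N134-RHAMMB tumours. The difference of metastases from N134 tumours was not tested here for these genes.

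Among adhesion genes Sdc4 (ENSMUSG00000017009, chromosome 2, 164424247 to 164443887 in GRCm38), a cell surface heparan sulfate proteoglycan that hepatocytes also express, rose from 3.16, 2.91 and 3.23 to 13.1, 14.2 and 15.46 FPKM (difference 1.896, SE 0.17, adjusted p = 3.06e-05). Cd44, a hyaluronan receptor, fell from 12.7, 11.5 and 11.9 to 5.93, 5.87 and 5.88 FPKM (difference -0.92, SE 0.13, adjusted p = 0.000726), with a spread of 0.0336 FPKM (SD, n = 3) in metastases. Cd24a, a small glycoprotein of progenitor and epithelial cells, fell from 128, 116 and 106 to 47.1, 80.5 and 60.8 FPKM (difference -0.91, SE 0.17, adjusted p = 0.00606), and without both tumours with muscle transcripts adjusted p = 0.079. The 2 adhesion genes that fell were 4 without metastasis 2. Beta-catenin, Ctnnb1, stood at 170.2, 179 and 169 FPKM under the skin against 206, 199 and 178 FPKM in the liver (difference 0.17, SE 0.09, adjusted p = 0.416).

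Cell cycle genes had a median of -0.18 over 69 members, 2 of which fell. The phosphatase Cdc25c, which starts mitosis, fell from 21.8, 19.1 and 18.4 to 12.1, 12.1 and 11.6 FPKM (difference -0.68, SE 0.11, adjusted p = 0.0024). The mitotic kinesin Kif20a fell from 48.1, 45.9 and 43.6 to 32.4, 30.5 and 30.7 FPKM (difference -0.54, SE 0.09, adjusted p = 0.00359), and without both tumours with muscle transcripts adjusted p = 0.0747. The count of 2 was 7 without metastasis 2, 5 without metastasis 3 and 1 without both of those tumours. In 28 of the 69 the metastases lay below all N134-RHAMMB tumours, which 11% of all genes tested did. Top2a, a topoisomerase of dividing cells, stood at 329, 321 and 319 FPKM under the skin against 264, 302 and 301 FPKM in the liver and did not pass (difference -0.16, SE 0.09, adjusted p = 0.451), and for Mcm5, a replicative helicase subunit, the difference was -0.03 (95% interval -0.24 to 0.19).

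Hypoxia and glycolysis genes (26 members) and endoplasmic reticulum genes (29 members) had none that passed in limma. At an unadjusted p below 0.05 there were 1 and 0, and with library weights 1 of each list was higher. For 20 of the endoplasmic reticulum genes the 95% interval lay within -0.5 to 0.5. Hspa5, the chaperone BiP, stood at 441, 423 and 399.6 FPKM under the skin against 483, 510.02 and 377 FPKM in the liver (difference 0.11, SE 0.12, adjusted p = 0.761). Vegfa, the vascular growth factor, stood at 49.6, 40.8 and 65.5 FPKM under the skin against 66.5, 56.5 and 71.02 FPKM in the liver (difference 0.33, SE 0.16, adjusted p = 0.359). Of 29 sterol and fatty acid genes 2 rose. Insig2, an endoplasmic reticulum brake on sterol synthesis, rose from 13.7, 20.4 and 14.7 to 43.8, 31.96 and 46.2 FPKM (difference 1.27, SE 0.17, adjusted p = 0.000726). Hepatocytes also express it. Several of these genes, such as Fdps at 86.4, 169.6 and 62.6 FPKM and Hmgcs1 at 45.4, 75.8 and 26.6 FPKM, were highest in metastasis 2.

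For the genes that rose in the tumour cell and skin site lists, the liver lists moved with the group in every library, at 3.38% to 3.71% of summed FPKM against 0.48% to 0.52%. The part of liver RNA in these differences was not tested.

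**Figure D4:**
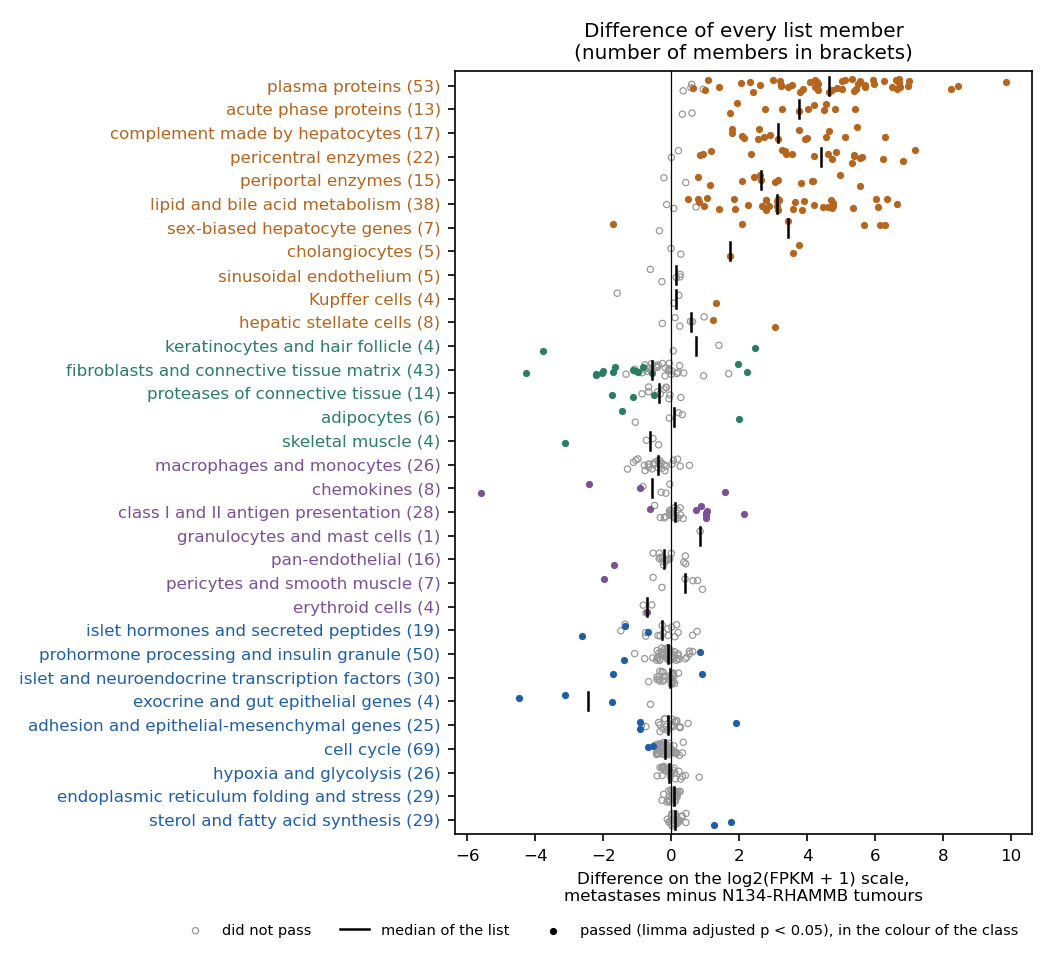
Difference of each list member on the log2(FPKM + 1) scale (x axis, metastases minus N134-RHAMMB tumours) by list, with filled points for genes that passed, open points for those that did not and a bar at the list median. Hepatocyte lists lie to the right of 0, fibroblast and matrix genes lean to the left with a median of -0.57, and most tumour cell genes lie near 0.

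**Figure D5:**
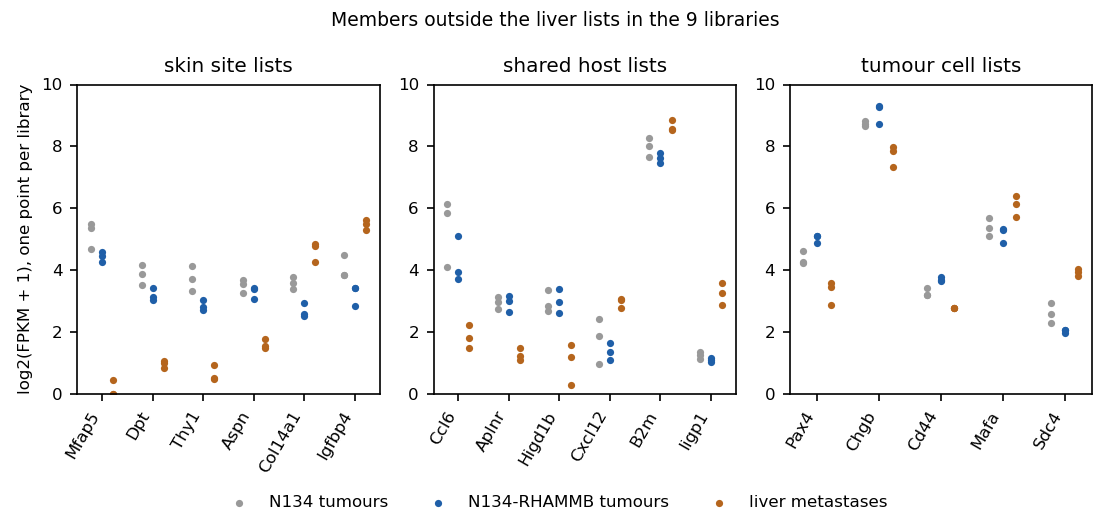
Level of 17 members outside the liver lists as log2(FPKM + 1) (y axis), with 1 point per library for N134 tumours, N134-RHAMMB tumours and liver metastases. In each gene the metastases do not overlap with the N134-RHAMMB tumours.

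Outside the lists, 229 of 8659 genes rose and 83 fell (3.6% passed, against 6.56% of all genes tested). The count of 83 was 205 without metastasis 2, 23, 47 and 49 without N134-RHAMMB tumours 1, 2 and 4 in turn, 52 and 54 without N134 tumours 2 and 3, and 13 without both tumours that held muscle transcripts. Among those at 5 FPKM in both groups 82 rose and 65 fell, out of 7815 (1.88% passed, against 2.45% of all such genes). The largest that rose, all at 5 FPKM in metastases only, included these genes. Serpina3k, a serpin with near-identical copies, stood at 284, 305 and 258 FPKM in metastases and at or under 0.132 FPKM in subcutaneous N134-RHAMMB tumours. Ces1c, a plasma carboxylesterase, stood at 71.9, 95.6 and 87.4 FPKM, and the cytochrome P450 Cyp2c70, which makes muricholic acids, was listed at 0 in those tumours and stood at 44.7, 50.2 and 47.5 FPKM in metastases. Asgr1, a subunit of the hepatocyte asialoglycoprotein receptor, stood at 22.97, 24.2 and 23.8 FPKM, and Gjb1, the gap junction protein connexin 32, at 17.4, 23.3 and 25.1 FPKM. Clu, the secreted chaperone clusterin, rose from 2.49, 2.81 and 4.91 to 129, 143 and 118 FPKM (difference 4.93, SE 0.22, adjusted p = 7.86e-08), and Nrn1, neuritin, from 0.147, 0.0988 and 0.141 to 21.4, 32.4 and 22.6 FPKM (difference 4.53, SE 0.18, adjusted p = 2.86e-08). The transferase Ugt2b36, the retinol dehydrogenase Rdh7 and Selenbp2 also rose, each by over 5 on the log2 scale or from a level listed at 0.

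The largest that fell outside the lists were St6galnac2, a sialyltransferase, from 21.8, 12.8 and 13.6 to 4.19, 0.88 and 1.32 FPKM (difference -2.56, SE 0.34, adjusted p = 0.000621), and Cbr2, a carbonyl reductase, from 11.7, 8.904 and 8.01 to 1.501, 0.287 and 1.34 FPKM (difference -2.41, SE 0.44, adjusted p = 0.00625, and 0.097 for the adjusted p without both tumours that held muscle transcripts). Rbp7, a retinoid binding protein, fell from 15.8, 22.3 and 10.4 to 2.03, 3.43 and 2.24 FPKM (difference -2.23, SE 0.29, adjusted p = 0.000448). Gucy2c, the guanylin receptor of gut epithelium, fell from 23.01, 17.1 and 13.6 to 7.31, 2.13 and 3.16 FPKM (difference -1.96, SE 0.31, adjusted p = 0.00233), with 20.1, 19.5 and 19.9 FPKM in N134 tumours. These 4 were taken from genes whose groups did not overlap, so their lack of overlap is fixed by that choice. All 4 met the FPKM rule in tumours only, as did Sparcl1, Ly6c1 and Cnr1 below. The differences of these genes are fixed in part by the rule. Sparcl1, a matrix glycoprotein, fell from 23.01, 25.6 and 25.2 to 10.2, 7.05 and 4.62 FPKM (difference -1.68, SE 0.21, adjusted p = 0.000334), as did Ly6c1, a surface protein of endothelial and myeloid cells, from 12.5, 8.15 and 6.82 to 1.39, 3.17 and 1.44 FPKM (difference -1.77, SE 0.26, adjusted p = 0.00133). At 5 FPKM in both groups Hopx, an atypical homeodomain protein, fell from 53.7, 47.4 and 38.5 to 23.8, 24.1 and 14.3 FPKM (difference -1.16, SE 0.19, adjusted p = 0.00321), and Plac8 from 39.1, 23.2 and 25.1 to 12.8, 10.4 and 12.3 FPKM (difference -1.199, SE 0.19, adjusted p = 0.00223). Cnr1, the cannabinoid receptor, fell from 7.58, 8.25 and 7.13 to 1.48, 4.78 and 1.55 FPKM (difference -1.38, SE 0.29, adjusted p = 0.0136), a call lost without metastasis 1 or 3 or N134-RHAMMB tumour 1 or 2 (limma adjusted p = 0.0513 to 0.0577).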

How the data were processed

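RNA sequencing of 9 libraries in 3 groups of 3 was used: subcutaneous tumours of N134 cells, subcutaneous tumours of N134-RHAMMB cells, and liver metastases of the latter. Total RNA was extracted with a Qiagen miRNeasy Mini kit, per the labels' protocols. The authors deposited 1 table of FPKM per gene on GRCm38 coordinates, and the submitters' processing notes name bcl2fastq 2.19, STAR 2.5.2 and Cufflinks 2.1.1 with no role. Their fitting of FPKM can split reads between near-identical genes, and a value of 0 can be a failed estimate. Of 22053 rows, 7 marked as failed and 102 duplicates were left out, which left 21944 genes. The table's starts were raised by 1, after which 82.3% of 21806 matched rows equal the annotation.

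Differences were fitted with limma 3.58.1 (R 4.3.3) on log2(FPKM + 1), with 1 model over all 9 libraries, a variance trend and 6 residual degrees of freedom, for 12854 genes at 1 FPKM or more in at least 3 libraries. Tests were 2-sided with Benjamini-Hochberg adjustment at 0.05. An exact permutation test of 3 against 3 cannot go below 0.1, so none was used. Python 3.11.15 and matplotlib 3.10.9 were used for the other steps. The model was tested on simulated data.

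The genes compared and the 32 lists were chosen with earlier results of these data known. Named genes were taken, in each list, from up to 8 with the largest difference, passing or not, and up to 6 with the highest mean FPKM over the 6 libraries; outside the lists, from up to 20 that rose and 20 that fell among those that passed without overlap, leaving out clone, Gm and Riken names; and 2 each just inside and outside the FPKM rule, with Hmmr. Listed genes under the FPKM rule that are named (Clec4g, Oit3, Rspo3, Adipoq, Krtdap, Krt5) were chosen after their values were seen. Replicate numbers did not pair the samples (correlations of deviations -0.003 to 0.102). Alternatives covered the pseudocount, filters, scaling, libraries fitted, replicate block, weights, a minimum difference, the FPKM rule and leaving out each library. Leaving out both tumours with muscle transcripts was chosen after seeing the data. Promoter sequences are from RefSeq on GRCm38.p6, and 7249 of 9288 genes matched by symbol. Depth was estimated from the smallest steps in FPKM, and a depth near 15 M fragments gives little counting error at 5 FPKM. A few genes that the naming rule selects are not reported here.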

Additional observations from a re-analysis of the deposited data

How the results depend on the processing

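Liver list genes that rose numbered 156 and stayed within 1.5 times that count under every alternative fitted, at 149 to 159 with 1 library left out. Among the 9288 genes, 402 rose, and 255 did with a filter at a mean of 5 FPKM; with 1 library left out the count was 346 to 510. The 121 that fell were 65 with only the 6 libraries of both groups, 62 with the replicate block, 751 with library weights, 23 with a minimum log2 difference of 0.5 and 43 without both tumours with muscle transcripts; with 1 library left out they were 57 to 251. The 18 skin site genes that fell were 11 with the replicate block, 7 with the minimum difference and 10 at a rule of 10 FPKM, and 11 to 18 with 1 library left out. The 5 tumour cell genes that rose were 15 with library weights, 3 with the minimum difference, 3 without both tumours with muscle transcripts and 8 at a rule of 2 FPKM, and 4 to 10 with 1 library left out. The 12 that fell were 46 with library weights and 5 with the minimum difference, and 9 to 25 with 1 library left out. The cause of these shifts was not tested. No difference that passed among the named genes changed sign under the alternatives fitted. With library weights the balance of the counts turned, from 402 higher and 121 lower among the 9288 genes to 600 and 751, with 1014 higher and 936 lower over all genes tested. The replicate block, whose numbers are shared by label only, gave 548 higher and 98 lower (646 in all) against 648 and 195 (843). Of the 523 calls among the 9288 genes, 320 to 515 remained under the settings other than leaving out libraries.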
